A study of Mus musculus with 9 samples.

Results

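The genes described here encode 7 regulators of G protein signalling (RGS proteins): Rgs1, Rgs2, Rgs3, Rgs10, Rgs14, Rgs16 and Rgs19. They were taken by symbol from the 23992 gene symbols of the deposited tables, with the transcript of most summed reads where a symbol had several. The members were all among the 10702 genes tested, those with an RPKM (reads per kilobase of transcript, scaled to library depth) of at least 1 in at least 3 of 9 libraries.

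The cells were regulatory T cells (Tregs) of BALB/c mice, with spleens given as their source. They were positive for Foxp3GFP and carried oIL-2Rβ, an orthogonal form of the IL-2 receptor beta chain introduced by transduction together with a human EGFR tag, in every group. All of them had 48 h of CD3/CD28 beads with 1000 IU/mL human IL-2, magnetic isolation of tagged cells and a night without IL-2. Then 3 libraries per group were made after 4 h without IL-2 (no IL-2), with 20000 IU/mL wild-type IL-2 (WT IL-2) or with 2000000 IU/mL orthogonal IL-2 (ortho IL-2), a cytokine engineered for the orthogonal receptor. The doses of the cytokines were therefore not matched. Whether replicate libraries stem from different animals or cultures is not in the labels, so the p-values reflect only how these libraries vary, possibly for technical reasons. No untransduced cells were compared here.

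Receptors coupled to heterotrimeric G proteins, among them those for chemokines and sphingosine-1-phosphate, switch on a Gα subunit by making it exchange GDP for GTP. An RGS protein binds the active Gα subunit and speeds its GTP hydrolysis, which ends the signal. In lymphocytes RGS proteins are known for limiting how strongly and for how long cells respond to chemoattractants. Rgs1, Rgs2, Rgs3 and Rgs16 belong to the R4 subfamily, Rgs10 and Rgs14 to the R12 subfamily, and Rgs19 (also called GAIP) to the RZ subfamily.

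Depth ran from 16581624 to 58182835 reads in genes. The share of reads outside genes was 40.5% ± 2.43 in no IL-2, 31.7% ± 2.96 in WT IL-2 and 29.4% ± 3.64 in ortho IL-2 (SD, n = 3), so it moved with the groups. WT IL-2 replicate 1 and ortho IL-2 replicate 3 stood apart from their groups: their counts differed from the other replicates by a chi-square of 24.2 to 36.4 per degree of freedom, against 5.03 to 7.76 between all other replicate pairs. Treg and T cell markers were detected, Foxp3 at a level of 137 ± 2.50 RPKM without IL-2 and 222 ± 41.9 and 235 ± 26.0 RPKM with WT and ortho IL-2, and the summed level of 11 such markers was 3315 to 3363, 3841 to 3933 and 3833 to 3893 RPKM in those groups. That sum rose through Il2ra, the IL-2 receptor alpha chain, at 275, 1128 and 1094 RPKM on average. Without Il2ra it was 3040 to 3087, 2738 to 2774 and 2695 to 2794 RPKM, and in both comparisons 3 of the 11 markers were called higher and 6 lower, among them Cd4 (log2 fold change -0.52 and -0.50) and Ctla4 (-0.51 and -0.53). Over all genes tested, 47.9% were called with WT and 56.0% with ortho IL-2. The same sum for 10 B cell markers was 5.75 to 6.05, 4.06 to 4.93 and 4.80 to 5.37 RPKM, and for 12 myeloid markers 3.73 to 4.23, 3.15 to 3.34 and 2.94 to 3.45 RPKM. Markers of CD8 T and NK cells summed to 12.8 to 13.1, 17.5 to 21.4 and 19.4 to 20.0 RPKM, with Klra8 at 0 reads. Of the 3 tested, Prf1 and Gzma were called higher and Cd8b1 was not called (log2 fold change 0.14 and 0.16). Prf1 met the expression minimum only through the IL-2 libraries, so its rise is tied to how it was selected. The untested markers of this list went both ways, such as Klrd1 (1.21, 0.427 and 0.518 RPKM on average) and Cd8a (0.460, 0.877 and 0.960 RPKM). Markers of the erythroid and platelet lineages summed to 9.17 to 10.1, 28.5 to 31.8 and 29.2 to 30.8 RPKM, nearly all of it Gata1, with Gp9 at 0 reads in every library. The part of these markers in the results below was not tested.

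Levels below are RPKM rescaled by edgeR's TMM factors, which adjust between libraries. Between genes they are scaled only by the length of the transcript taken, without correction for GC content, so orders and shares of genes are approximate. Without IL-2 the order of mean levels was Rgs10 (174 ± 3.37 RPKM, SD, n = 3 here and below), Rgs1 (130 ± 1.72), Rgs2 (125 ± 1.90), Rgs14 (22.3 ± 0.422), Rgs19 (21.3 ± 1.37), Rgs3 (19.1 ± 0.444) and Rgs16 (4.94 ± 0.295). The ranges of Rgs14 and Rgs19 overlapped, and those of the other neighbours did not. With WT IL-2 Rgs1 came first at 329 ± 44.1 RPKM, ahead of Rgs10 (116 ± 6.07), Rgs2 (38.0 ± 2.99), Rgs19 (31.1 ± 2.71), Rgs14 (26.9 ± 4.77), Rgs3 (15.9 ± 2.20) and Rgs16 (2.93 ± 0.143). Here too only the ranges of Rgs14 and Rgs19 overlapped among neighbours. With ortho IL-2 the order was the same, at 298 ± 24.0 RPKM for Rgs1, 114 ± 2.98 for Rgs10, 35.9 ± 3.0 for Rgs2, 31.8 ± 2.72 for Rgs19, 29.9 ± 3.43 for Rgs14, 17.3 ± 1.19 for Rgs3 and 2.74 ± 0.286 for Rgs16. In that group the ranges of Rgs2 and Rgs19 overlapped, as did those of Rgs19 and Rgs14.

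**Figure D1:**
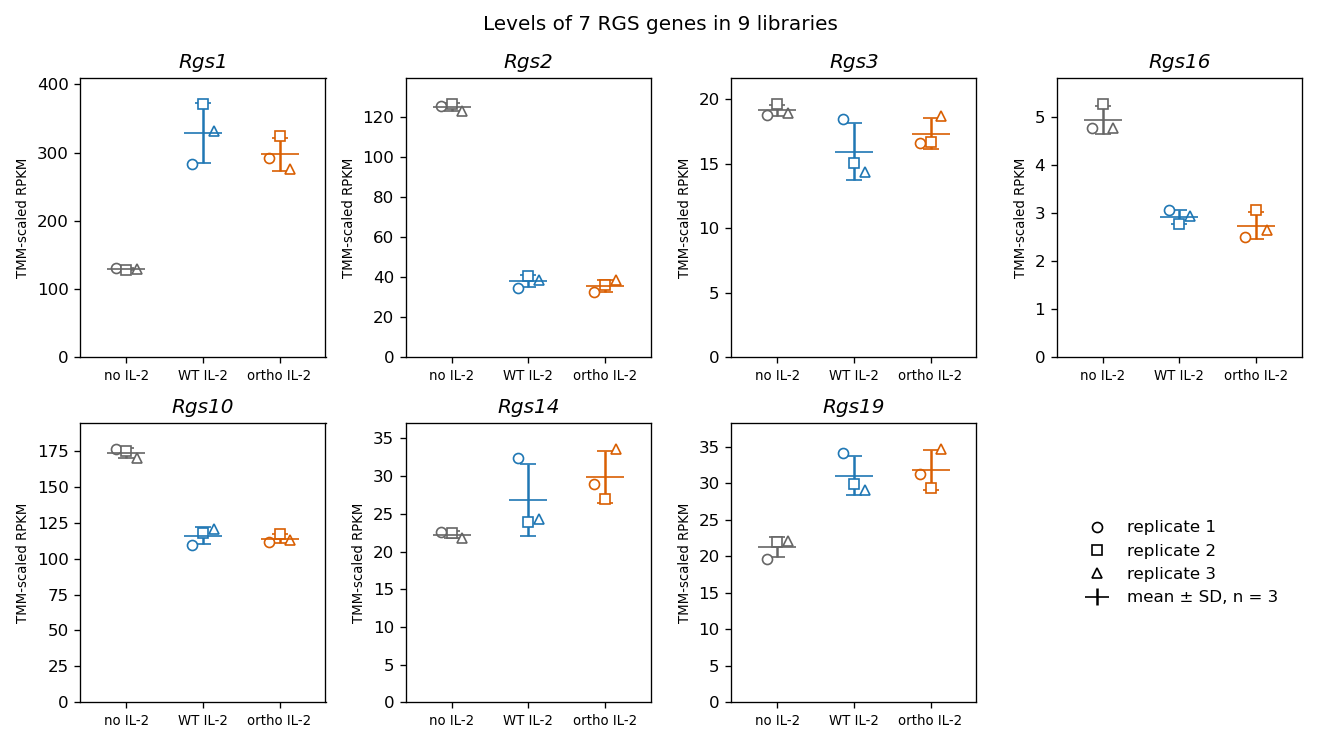
Level of each RGS gene (y axis, TMM-scaled RPKM from 0) in the 9 libraries, by group (x axis), with the marker shape giving the replicate and the bar the mean ± SD of 3 libraries. Rgs1 was above 276 RPKM in each IL-2 library and at most 131 RPKM without IL-2, while Rgs2 fell from at least 123 RPKM to at most 40.7 RPKM.

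Against no IL-2, 6 of the 7 members were called with WT IL-2 (edgeR's quasi-likelihood test, adjusted p under 0.05), 2 higher and 4 lower. In all genes tested 47.9% were called in that comparison, 25.0% higher and 22.9% lower. Ortho IL-2 also gave 6 called members out of 7, of which 3 were higher and 3 lower, where 56.0% of all genes were called, 28.5% higher and 27.4% lower. For all 7 members the 3 IL-2 libraries did not overlap the 3 no IL-2 libraries in either comparison, which held for 58.8% and 66.1% of all genes. Changes of at least 2-fold were rarer, 4.69% of genes with WT and 6.27% with ortho IL-2, and Rgs1 and Rgs2 were the members past it in both. The median log2 fold change of the members was -0.26 with WT and -0.14 with ortho IL-2, beside 0.01 and 0.01 over all genes tested. Both comparisons use the same 3 no IL-2 libraries, so their values stand side by side and do not support each other. The deposited RPKM divides by a read total that includes reads outside genes. Limma on those values (pseudocount 0.1), which differs from the edgeR fit in both test and scaling, moved the median gene up by 0.22 (WT) and 0.28 (ortho) on the log2 scale. It called 4373 genes higher and 845 lower with WT and 5559 higher and 904 lower with ortho IL-2, where edgeR called 2675 and 2447, and 3054 and 2936.

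Of the R4 subfamily, Rgs1 rose and Rgs2 and Rgs16 fell. Rgs1 (chromosome 1, 144244669 to 144249104, minus strand, GRCm38) acts on Gαi and Gαq and is known for dampening chemokine responses of B and T cells. Its level was 131, 128 and 130 RPKM in the 3 no IL-2 libraries, 284, 372 and 332 RPKM with WT IL-2 and 292, 324 and 277 RPKM with ortho IL-2. Each IL-2 library was thus above every no IL-2 library, and the IL-2 groups overlapped each other. The log2 fold change was 1.34 (SE 0.09, adjusted p = 1.87e-06 by edgeR) with WT IL-2 and 1.20 (SE 0.09, adjusted p = 4.09e-06) with ortho IL-2. Rgs1 was the largest rise among the 7 members.

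Rgs2 (chromosome 1, 143999338 to 144004149, minus strand) acts mainly on Gαq and was the largest fall among the members. The no IL-2 libraries held 126, 127 and 123 RPKM, the WT IL-2 libraries 34.8, 40.7 and 38.7 RPKM and the ortho IL-2 libraries 32.8, 36.1 and 38.7 RPKM. The IL-2 libraries were all far below the no IL-2 libraries and overlapped each other. The log2 fold change was -1.72 (SE 0.07, adjusted p = 6.99e-08 by edgeR) with WT IL-2 and -1.80 (SE 0.07, adjusted p = 5.11e-08) with ortho IL-2.

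The genes that moved furthest in opposite directions are neighbours on the same strand of chromosome 1. The gap between Rgs2 and Rgs1 is 240520 bases, with Rgs13 between them, which had 1 read over all libraries. Without IL-2 their levels were nearly equal, with a ratio of Rgs1 to Rgs2 of 1.04 ± 0.0252 within a library, and with WT and ortho IL-2 the ratio was 8.63 ± 0.494 and 8.35 ± 1.04. Rgs1 made up 26.1% ± 0.454 of the summed level of the 7 members without IL-2, 58.6% ± 3.38 with WT and 56.2% ± 2.59 with ortho IL-2. Rgs2 made up 25.2% ± 0.177, 6.79% ± 0.0750 and 6.78% ± 0.607, and Rgs10 35.0% ± 0.361, 20.8% ± 0.986 and 21.5% ± 0.307. The summed level itself was 496 ± 4.75, 560 ± 43.3 and 529 ± 20.9 RPKM. Beyond Rgs1 on that strand lies Rgs18, a regulator known from platelets, which was below the expression minimum and is named here after its values were seen. It had 9, 8 and 5 reads without IL-2, 41, 64 and 59 with WT IL-2 and 53, 29 and 60 with ortho IL-2, that is 0.163 ± 0.00139, 0.870 ± 0.269 and 0.675 ± 0.116 RPKM. In the edgeR fit without a minimum its log2 fold change was 2.45 (adjusted p = 4.11e-05) with WT and 2.09 (adjusted p = 0.0002) with ortho IL-2. Of the erythroid and platelet markers, Gp9 was at 0 reads, Pf4 at 0.0404, 0.0360 and 0.0263 RPKM and Itga2b at 0.820, 0.694 and 0.743 RPKM on average, while Gata1 rose from 8.46 to 28.5 and 28.9 RPKM (log2 fold change 1.75 and 1.77). Their part in the Rgs18 values was not tested.

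**Figure D2:**
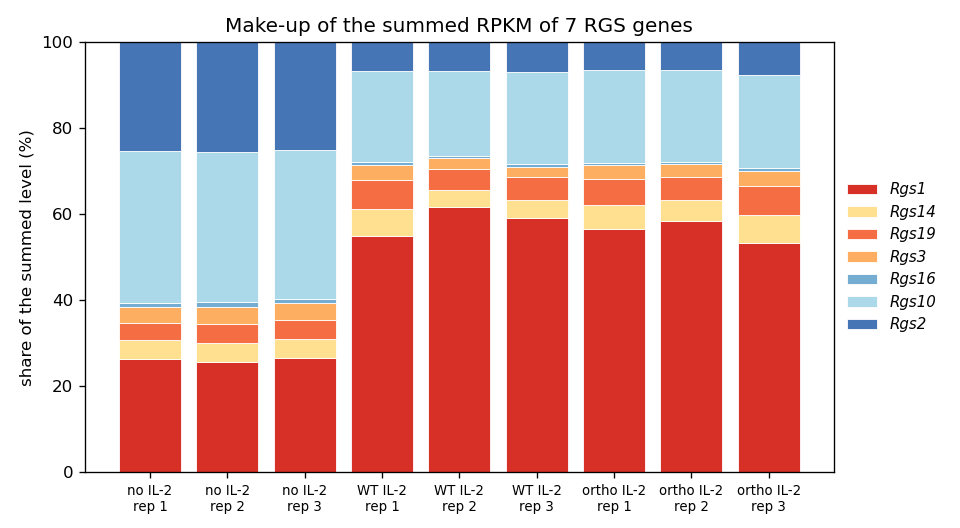
Share of each gene (coloured segment) in the summed TMM-scaled RPKM of the 7 RGS genes (y axis, percent) for each of the 9 libraries (x axis). Rgs1 took 26.1% on average without IL-2, against 58.6% and 56.2% with WT and ortho IL-2, and Rgs2 went from 25.2% to 6.79% and 6.78%.

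Rgs16 (chromosome 1, 153740353 to 153745468, plus strand), which acts on Gαi and Gαq, was the lowest member. It was at 4.77, 5.28 and 4.77 RPKM without IL-2, 3.06, 2.77 and 2.95 RPKM with WT IL-2 and 2.51, 3.06 and 2.65 RPKM with ortho IL-2. Every IL-2 library lay below every no IL-2 library. Its log2 fold change was -0.75 (SE 0.10, adjusted p = 0.000158 by edgeR) with WT and -0.86 (SE 0.10, adjusted p = 6.5e-05) with ortho IL-2. Of its exonic bases 236 (10.1%) overlap Gm28513 on the opposite strand, and strand use in the counting is not given in the sources used here. No other member shares exonic bases with another gene.

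Rgs3 (chromosome 4, 62559835 to 62703019, plus strand), a regulator with several protein forms that acts on Gαi and Gαq, changed least. Its levels were 18.8, 19.6 and 18.9 RPKM without IL-2, 18.4, 15.0 and 14.3 RPKM with WT IL-2 and 16.6, 16.7 and 18.7 RPKM with ortho IL-2. The highest IL-2 libraries, WT IL-2 replicate 1 and ortho IL-2 replicate 3, were the pair that stood apart and came close to the no IL-2 libraries. The log2 fold change was -0.26 (SE 0.09, adjusted p = 0.0365 by edgeR) with WT IL-2, which passed the test, and -0.14 (SE 0.09, adjusted p = 0.203) with ortho IL-2, which did not. The WT call was lost without WT IL-2 replicate 2 (adjusted p = 0.106) or 3 (adjusted p = 0.118), and without no IL-2 replicate 1 (adjusted p = 0.0713), 2 (adjusted p = 0.104) or 3 (adjusted p = 0.0769). With both libraries that stood apart left out, the ortho value was -0.20 and passed (adjusted p = 0.0027), as it did at -0.14 without WT IL-2 replicate 1 alone (adjusted p = 0.0451). The 3 transcripts listed for Rgs3 share most of their reads (17317, 18626 and 19259 in all, the last taken), and the longest of them gave -0.32 with WT and -0.26 with ortho IL-2 (adjusted p = 0.00278 and 0.00809 by edgeR).

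Of the R12 subfamily, Rgs10 fell with both cytokines and Rgs14 rose with ortho IL-2. Rgs10 (chromosome 7, 128373621 to 128419506, minus strand), a short RGS protein that acts on Gαi, was the most abundant member without IL-2. It was at 176, 175 and 170 RPKM there, at 109, 118 and 121 RPKM with WT IL-2 and at 112, 117 and 113 RPKM with ortho IL-2. Its log2 fold change was -0.58 (SE 0.05, adjusted p = 6.67e-06 by edgeR) with WT and -0.61 (SE 0.05, adjusted p = 4.76e-06) with ortho IL-2. The replicates of Rgs10 lay close together and the SE was the smallest of the 7 members.

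Rgs14 (chromosome 13, 55369732 to 55384687, plus strand) carries, beside its RGS domain, a GoLoco motif that holds Gαi in its GDP form. It was at 22.6, 22.4 and 21.8 RPKM without IL-2, 32.4, 23.9 and 24.4 RPKM with WT IL-2 and 29.0, 26.9 and 33.6 RPKM with ortho IL-2. The highest library of each IL-2 group was again the one that stood apart. The log2 fold change was 0.43 (SE 0.12, adjusted p = 0.0125 by edgeR) with ortho IL-2, which passed, and 0.27 (SE 0.12, adjusted p = 0.0837) with WT IL-2, which did not. Without the 2 libraries that stood apart these values were 0.33 (adjusted p = 0.000185) and 0.11 (adjusted p = 0.072). Leaving out WT IL-2 replicate 1 alone gave 0.12 (adjusted p = 0.284) for WT IL-2, and leaving out WT IL-2 replicate 2 gave 0.35 (adjusted p = 0.0438). The WT value also passed without an expression minimum, at 0.33 (adjusted p = 0.0343 by edgeR), and with limma on deposited RPKM, at 0.47 (pseudocount 0.1, adjusted p = 0.028) and 0.44 (pseudocount 1, adjusted p = 0.0205). The transcripts of Rgs14 and Rgs3 had the highest GC content of the members, 57.6% and 58.0%, against 37.4% for Rgs1. Offsets for GC content gave 0.18 (adjusted p = 0.01) for Rgs14 with ortho IL-2 and 0.10 (adjusted p = 0.0977) with WT IL-2, and -0.40 (adjusted p = 1.12e-05) for Rgs3 with ortho IL-2.

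Rgs19 (chromosome 2, 181688419 to 181694537, minus strand), known for binding Gαi, rose. Its level was 19.7, 22.0 and 22.1 RPKM without IL-2, 34.2, 29.9 and 29.1 RPKM with WT IL-2 and 31.4, 29.4 and 34.8 RPKM with ortho IL-2. All IL-2 libraries were above all no IL-2 libraries. The log2 fold change was 0.55 (SE 0.09, adjusted p = 0.000511 by edgeR) with WT and 0.59 (SE 0.09, adjusted p = 0.000306) with ortho IL-2. When the percentage of reads outside genes entered the model as a covariate, the values were 0.35 (adjusted p = 0.0941) and 0.34 (adjusted p = 0.197), and Rgs14 with ortho IL-2 was 0.23 (adjusted p = 0.604). Rgs1, Rgs2, Rgs10 and Rgs16 passed the test with that covariate in both comparisons.

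**Figure D3:**
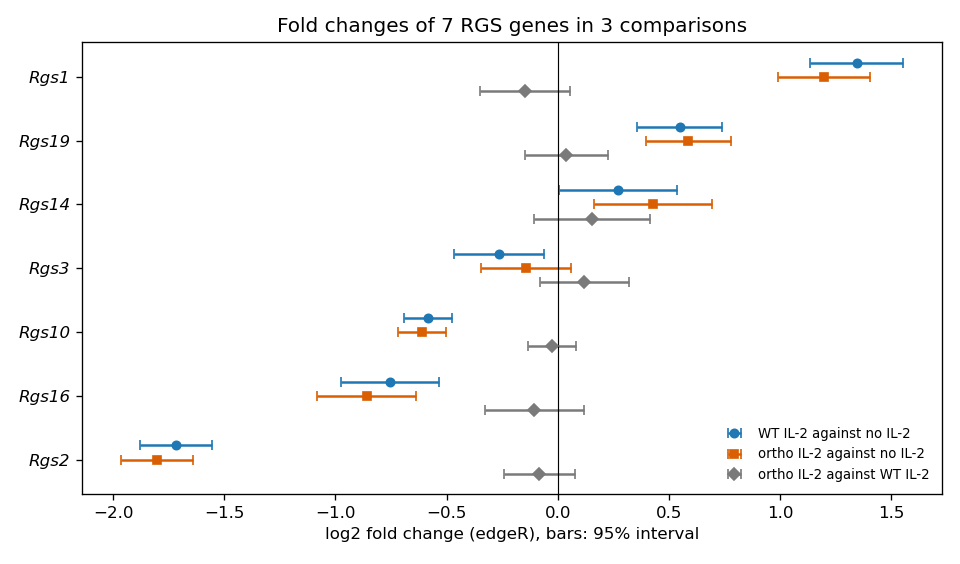
Log2 fold change (x axis) of each RGS gene with its 95% interval (bars) by edgeR, for WT IL-2 and ortho IL-2 against no IL-2 and for ortho IL-2 against WT IL-2. Rgs1 (1.34 and 1.20) and Rgs2 (-1.72 and -1.80) lie furthest from 0, and the ortho against WT values all lie between -0.15 and 0.15 with intervals that include 0.

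Promoter sequences are shown for Rgs2, Rgs10 and Rgs16, the members that fell with both cytokines. They are the 250 bases before a RefSeq transcript start (GRCm38.p6, 5′ to 3′ on the gene's strand), and the window of Rgs10 belongs to a start inside the span given above. Capitals mark the GC box GGGCGG and the CCAAT box on either strand.
Rgs2, chr1:144004150-144004399, minus strand: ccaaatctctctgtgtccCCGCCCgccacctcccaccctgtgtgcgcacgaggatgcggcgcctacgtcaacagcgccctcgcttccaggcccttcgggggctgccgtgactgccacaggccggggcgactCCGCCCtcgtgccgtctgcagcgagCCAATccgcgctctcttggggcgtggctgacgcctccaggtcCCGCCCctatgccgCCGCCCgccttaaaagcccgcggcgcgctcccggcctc
Rgs10, chr7:128418173-128418422, minus strand: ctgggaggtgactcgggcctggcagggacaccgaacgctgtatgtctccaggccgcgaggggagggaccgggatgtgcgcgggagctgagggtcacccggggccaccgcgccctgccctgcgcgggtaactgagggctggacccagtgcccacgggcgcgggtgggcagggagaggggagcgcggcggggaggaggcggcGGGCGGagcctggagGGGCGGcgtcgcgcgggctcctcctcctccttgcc
Rgs16, chr1:153740103-153740352, plus strand: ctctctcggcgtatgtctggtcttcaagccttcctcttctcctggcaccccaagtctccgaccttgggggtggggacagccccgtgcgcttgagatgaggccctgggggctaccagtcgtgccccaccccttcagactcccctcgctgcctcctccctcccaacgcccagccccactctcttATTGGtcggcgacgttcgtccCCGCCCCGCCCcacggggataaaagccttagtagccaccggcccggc
Rgs2 held 4 GC boxes and 1 CCAAT box, Rgs10 2 GC boxes and Rgs16 2 overlapping GC boxes on the reverse strand and 1 CCAAT box. GC content was 72.4%, 76.4% and 66.4%, against a median of 52.4% over 32851 promoters, of which 32.7% held the GC box and 33.8% the CCAAT box. The letters of a TATA box (TATAAA, in 12.4% of promoters), of the STAT motif TTCNNNGAA (7.02%) and of a FOXO motif (GTAAACA, 3.17%) were not in these windows on either strand. For Rgs19, which rose, windows at 3 starts had 54.4%, 64.8% and 74.8% GC with 0, 1 and 2 GC boxes. The windows of Rgs3, which changed least, had 48.4% and 56.8% GC with 0 and 1 GC boxes, and each held the letters of 1 TATA box. RefSeq windows were matched for 5 of the 7 members, and these matches describe letters, not binding.

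Between the cytokines, at their unmatched doses, no member passed the test: 0 of 7, with 0% of all genes called by edgeR and 0 by DESeq2. At an unadjusted p under 0.05 there were 149 genes, 0 of them members. No member had ortho and WT IL-2 libraries that did not overlap, which held for 4.65% of all genes. The log2 difference, ortho minus WT IL-2, was -0.15 for Rgs1 (95% interval -0.35 to 0.06), -0.08 for Rgs2 (-0.24 to 0.08), 0.12 for Rgs3 (-0.08 to 0.32) and -0.10 for Rgs16 (-0.33 to 0.12). It was -0.03 for Rgs10 (-0.13 to 0.08), 0.15 for Rgs14 (-0.11 to 0.42) and 0.04 for Rgs19 (-0.15 to 0.22). Adjusted p-values ran from 0.909 to 0.92, which does not show that the cytokines act alike. For Rgs3 the interval leaves room for a difference larger than its changes against no IL-2 (-0.26 with WT and -0.14 with ortho IL-2). For Rgs14 the difference could exceed its change with WT IL-2 (0.27) and nearly reach that with ortho IL-2 (0.43). Rgs10 had the narrowest interval.

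Over the 9 libraries the members differed in pattern. Likeness was measured as the root mean square difference of log2 CPM after centring each gene on its own mean. The closest pairs were Rgs10 with Rgs16 (0.13) and Rgs14 with Rgs19 (0.14), and the farthest was Rgs1 with Rgs2 (1.43). Of all genes tested, those closest to Rgs1 were Gbp7 (0.06) and Spata5 (0.08), and those closest to Rgs2 were St8sia6 (0.08) and Ctsl (0.10), with 26.8% of the exonic bases of Ctsl opposite Gm47123. Snx18 (0.02) and Dhx40 (0.02) were closest to Rgs10, and Il6ra (0.07) and the chemokine receptor gene Cxcr4 (0.08) to Rgs16. For Rgs3 they were Sidt2 (0.04) and Dnajb12 (0.04), for Rgs14 Epn1 (0.03) and Spint2 (0.03), and for Rgs19 Tcof1 (0.04) and Mrps26 (0.04).

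Of 15 other Rgs genes, 14 were in the tables and 3 were tested, all called in both comparisons with no IL-2, and 2 of them with WT IL-2 once the libraries that stood apart were left out. The share called over all genes tested was 47.9% with WT and 56.0% with ortho IL-2. Rgs9, of the R7 subfamily, fell from 10.2 ± 0.855 to 6.42 ± 0.189 and 6.25 ± 0.535 RPKM with WT and ortho IL-2 (log2 fold change -0.67 and -0.71). Rgs11, of the same subfamily, rose from 13.7 ± 0.995 to 17.8 ± 3.51 and 20.8 ± 1.75 RPKM (0.38 and 0.60), and 3.28% of its exonic bases overlap Arhgdig on the opposite strand. Rgs12, a large relative of Rgs14, rose from 4.36 ± 0.0953 to 5.58 ± 0.319 and 5.69 ± 0.346 RPKM (0.36 and 0.39). It shares 5.50% of its exonic bases with Gm43791 on the opposite strand.

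Of 9 other proteins with an RGS or related domain, 2 rose and 4 fell with WT IL-2, and 2 rose and 5 fell with ortho IL-2. Over all genes 47.9% and 56.0% were called in those comparisons. The sorting nexins Snx14 (log2 fold change -0.86 and -0.90) and Snx13 (-0.85 and -0.95) fell, as did Axin2 (-0.78 and -0.79), a scaffold of the Wnt pathway. The list median was -0.12 and -0.13, and turned to 0.09 and 0.15 with limma on deposited RPKM (pseudocount 0.1).

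Of 16 genes for Gα subunits of all classes, 9 were tested. The list is wider than the Gαi and Gαq named above for the members, and includes Gnas, Gnal, Gna12 and Gna13. With WT IL-2 3 genes rose and 1 fell, and with ortho IL-2 4 rose and 1 fell. These counts stand beside 47.9% and 56.0% of all genes called. Gnai2, the main Gαi gene of lymphocytes, was at 158, 172 and 166 RPKM without IL-2, 249, 208 and 225 RPKM with WT IL-2 and 232, 211 and 253 RPKM with ortho IL-2 (log2 fold change 0.46 and 0.49). Its IL-2 libraries were all above its no IL-2 libraries. Gnaq, which encodes Gαq, rose from 13.5 ± 0.559 to 21.6 ± 0.728 and 20.9 ± 1.76 RPKM (0.69 and 0.63). Gnal, a relative of the stimulatory Gαs, rose from 2.92 ± 0.183 to 11.2 ± 0.415 and 10.9 ± 0.466 RPKM (1.94 and 1.90), with 7.63% of its exonic bases opposite Mppe1, and Gna13 fell from 163 ± 2.11 to 134 ± 1.88 and 134 ± 4.02 RPKM (-0.29 and -0.28). The list median was 0.03 and 0.04, beside 0.01 for all genes, and with limma on deposited RPKM 4 and 5 Gα genes were called higher and 0 lower.

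Of 11 tested Gβ and Gγ genes, 4 rose and 2 fell with WT and 4 rose and 3 fell with ortho IL-2. Gng4 (log2 fold change -1.78 and -1.85) and Gnb4 (-0.62 and -0.67) fell, and Gng5 (0.38 and 0.41) and Gnb5 (0.37 and 0.46), the Gβ subunit that pairs with R7 regulators such as Rgs9 and Rgs11, rose. Gng4 averaged 2.55 RPKM without IL-2 and 0.744 and 0.718 RPKM with WT and ortho IL-2. It met the expression minimum only through the no IL-2 libraries, so its fall is tied to how it was selected. Of 6 receptor kinases and arrestins, which switch off receptors themselves, 2 rose and 1 fell with WT and 3 rose and 2 fell with ortho IL-2. Grk4 fell (-0.81 and -0.94), and Grk6 (0.30 and 0.39) and Arrb2 (0.13 and 0.19) rose. Of 6 exchange and GoLoco factors, 2 rose with WT IL-2, and 3 rose and 1 fell with ortho IL-2, with Ric8, a Gα chaperone, at 0.28 and 0.36 and Gpsm1, a GoLoco protein, at 0.58 and 0.65. Of 6 adenylyl cyclases and phospholipases C beta, the effectors of Gαs, Gαi and Gαq, 1 rose and 2 fell with WT and 2 rose and 2 fell with ortho IL-2, Plcb4 (-0.84 and -0.79) and Adcy7 (-0.43 and -0.36) being lower and Adcy3 (0.40 and 0.46, with 22.1% of its exonic bases opposite Cenpo) higher. Of all genes tested 47.9% and 56.0% were called in these comparisons. Limma on deposited RPKM called more genes of these lists higher: 5 higher and 0 lower in both comparisons among the exchange and GoLoco factors, where Ric8b with ortho IL-2 turned from -0.19 to 0.08. It called 3 higher and 1 lower with WT and 4 higher and 1 lower with ortho IL-2 both among the effectors and among the receptor kinases and arrestins, and 5 higher with 2 and 3 lower among the Gβ and Gγ genes. With the libraries that stood apart left out, edgeR called 4 exchange and GoLoco factors higher with WT and 2 with ortho IL-2, and 0 lower in either.

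Of 19 tested G protein-coupled receptors of lymphocytes, 3 rose and 11 fell with WT IL-2, and 4 rose and 12 fell with ortho IL-2, where 22.9% and 27.4% of all genes fell, with a list median of -0.37 and -0.42. With limma on deposited RPKM 4 rose and 8 fell with WT IL-2 and 4 rose and 7 fell with ortho IL-2, at a median of -0.15 and -0.15. S1pr1, the sphingosine-1-phosphate receptor that guides exit from lymphoid organs, was at 274, 278 and 269 RPKM without IL-2, 170, 176 and 179 RPKM with WT IL-2 and 173, 172 and 171 RPKM with ortho IL-2 (log2 fold change -0.64 and -0.67). Cxcr4, the receptor for CXCL12, was at 155, 160 and 151 RPKM, then 93.3, 88.4 and 93.3 RPKM, then 86.0, 91.3 and 94.2 RPKM (-0.76 and -0.78). For both genes the IL-2 libraries were all below the no IL-2 libraries. Lpar6, a lysophosphatidic acid receptor that lies within Rb1 on the opposite strand, fell (-1.07 and -1.26), and Gpr83, a receptor known from Tregs, rose from 10.9 ± 0.490 to 72.9 ± 3.07 and 72.7 ± 2.55 RPKM (2.75 and 2.74). No gene of these lists passed the test between ortho and WT IL-2. In bulk samples, fewer cells expressing a gene and less RNA of it per cell cannot be told apart.

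**Figure D4:**
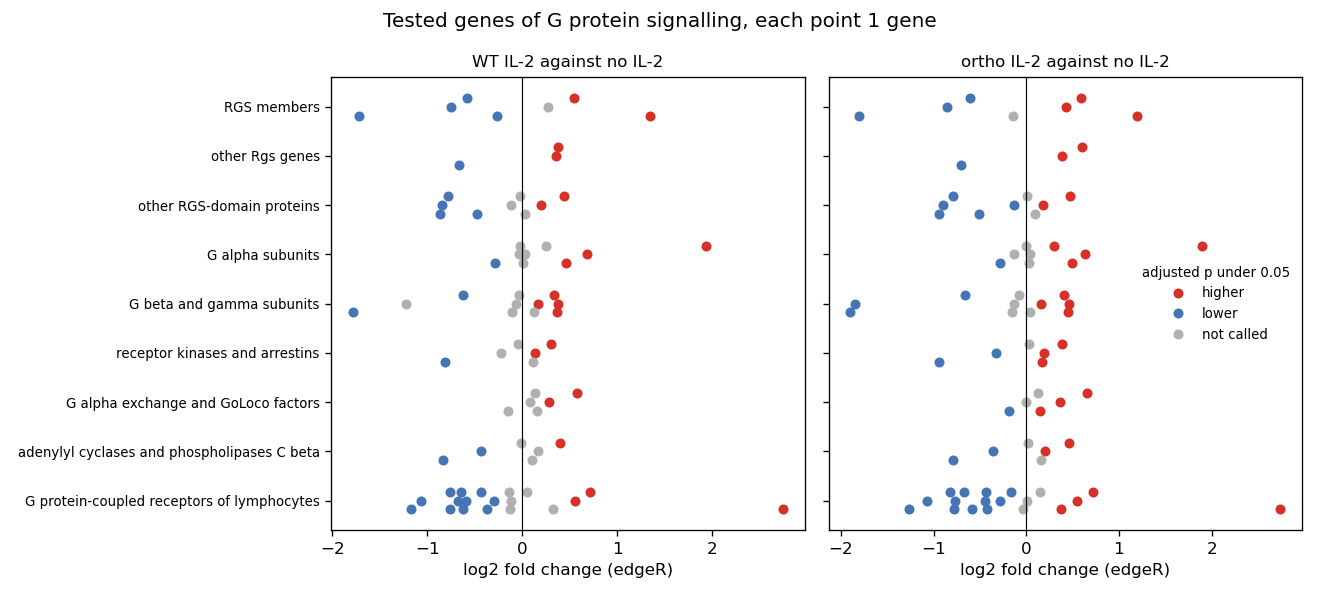
Log2 fold change (x axis, edgeR) of each tested gene in 9 lists of G protein signalling (rows), with WT IL-2 (left) and ortho IL-2 (right) against no IL-2, coloured by whether the adjusted p was under 0.05. Of 19 lymphocyte receptors 11 and 12 were lower, where 22.9% and 27.4% of all genes were. The 7 RGS members lie on both sides of 0.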

How the data were processed

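Per the file headers, each of the 9 deposited tables gives raw read counts and RPKM values per RefSeq transcript, made by the authors. Per the submitters' processing notes the tools were edgeR, bedtools 2.25.0, SAMtools 0.1.8, TopHat2 and Bowtie2, with build mm10. The sources used here do not name the counter, its strand use or the annotation release. The growth protocol in the labels describes a co-culture assay, and the treatment protocol was used for the groups.

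From the counts, edgeR 4.0.16 (R 4.3.3) fitted its quasi-likelihood model to 10702 genes in 9 libraries with TMM scaling and 1 mean per group, with Benjamini-Hochberg adjustment over all genes and a threshold of 0.05. SEs and 95% intervals were worked back from each p-value by a t distribution. Its degrees of freedom were the model's total, those of the residuals plus those gained by sharing spread over genes. Gene fits were tested on simulated counts. Named are all 7 members, up to 4 called genes of smallest p per pathway list, every called other Rgs gene and the 2 genes most alike to each member (prior count 2). Members and lists were chosen with earlier results of these data known. Positions are GRCm38.p6 from RefSeq, exon overlaps from GENCODE. Overlaps are given above for some of the named genes only. Other named genes also share exonic bases, such as Gbp7 (11.3% with Gm43802) and Snx14 (8.92% with Gm20537) on the same strand. On the opposite strand this holds for Sidt2 (10.4% with A830035O19Rik), Spata5 (8.13% with Nudt6) and Gnb5 (7.96% with Gm19531), among others. Alternatives were other scaling, filters, tools (DESeq2 1.42.0, limma 3.58.1), transcripts, covariates and left-out libraries.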

Additional observations from a re-analysis of the deposited data

How the results depend on the processing

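In the comparisons with no IL-2, Rgs1, Rgs2, Rgs10 and Rgs16 had the same direction and call under each of 22 alternatives. Their log2 fold changes with WT IL-2 ran from 1.25 to 1.58 (Rgs1), -1.87 to -1.47 (Rgs2), -0.61 to -0.37 (Rgs10) and -0.83 to -0.38 (Rgs16). The Rgs3 call with WT IL-2 was lost in 11 of 22, with values from -0.45 to -0.05 and adjusted p from 6.04e-06 to 0.731 over all of them, and with ortho IL-2 limma on deposited RPKM turned Rgs3 to 0.13 (pseudocount 0.1) and 0.12 (pseudocount 1), a setting that moves the median gene upwards. Rgs14 gained a call with WT IL-2 in 4 of 22, with values from 0.10 to 0.47, and with ortho IL-2 lost it in 1 of 22, with values from 0.18 to 0.69. Between the cytokines, where no member passed, Rgs10 turned to 0.038 with limma at pseudocount 0.1 and 0.037 at pseudocount 1, and ranged from -0.068 to 0.0037 when 1 library was left out. Rgs19 turned to -0.015 with the percentage of reads outside genes as covariate and ranged from -0.032 to 0.11 when 1 library was left out. The cause was not tested. That covariate reduced the genes called from 5122 to 2130 with WT IL-2 and from 5990 to 1573 with ortho IL-2 (the percentage itself differs between the groups). Leaving out 1 library gave 4068 to 5344 genes with WT IL-2, 4746 to 6634 with ortho IL-2 and 0 between the cytokines, and 5 to 6, 6 to 7 and 0 members. With both libraries that stood apart left out, an alternative chosen after seeing the data, 6 and 7 members were called. Whether replicate numbers pair the samples cannot be settled from 3 libraries per group. Correlations of same-numbered deviations were -0.05, -0.05 and -0.32 for WT with no IL-2 and 0.44, -0.05 and 0.31 for ortho with no IL-2. For ortho with WT IL-2 they were -0.04, 0.42 and -0.66. Differently numbered libraries gave -0.27 to 0.38, -0.41 to 0.07 and -0.57 to 0.60 in these 3 comparisons. With the replicate number as a block, 4788 and 5652 genes and 5 and 6 members were called, Rgs3 with WT IL-2 at an adjusted p of 0.0576. Counting depth limits Rgs16, with 154 to 368 reads per library, most among the members.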
